A study of Mus musculus with 4 samples.

Results

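Integrins are cell-surface receptors made of an alpha and a beta subunit, and 34 genes for their subunits, ligands, partners and activators were described across the RNA of mouse T-helper 17 (Th17) cells. The 34 symbols were chosen by name, with earlier results of these data known, and all 34 were found among the 50600 genes of the count tables by Ensembl identifier. They comprise 18 alpha subunits, 8 beta subunits and 8 other adhesion genes. Th17 cells are helper T cells named for the interleukin-17 they secrete. The study held 1 group of 4 libraries, biological replicates 1 to 4, of primary C57BL/6NJ cells, which the labels link to a CD4 T-cell differentiation protocol, with age and sex not given and no second condition. The labels give separate biosamples but a single donor identifier, and p-values measure only the spread between these libraries.

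An integrin reaches the cell surface only as a pair, and the alpha subunit largely sets which ligand is bound. On T cells, the pair of Itgal and Itgb2 (LFA-1) binds the intercellular adhesion molecules, and the pairs of Itga4 with Itgb1 or Itgb7 bind Vcam1 and the gut addressin Madcam1. Talin and kindlin bind the short cytoplasmic tail of the beta subunit, which switches the pair to its ligand-binding shape and ties it to actin.

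Libraries held 24696730 to 37025016 counted fragments. Levels are given as TPM (transcripts per 1000000), computed from fragments over each gene's summed exon length, and a gene is called detected at 1 TPM or more in every library. Cells carried T-cell and Th17 transcripts, with all 12 genes of those marker lists at 10 TPM or more in every library. The lists were chosen with earlier results of these data known, so this count is no independent test of identity. Of 41 markers of other cell types, 1 was detected (Cd8b1, at 7.32 ± 1.16 TPM, SD, n = 4) and 20 had no fragment. Cd8a, the other CD8 T-cell marker listed, was at 0.102 ± 0.0523 TPM. The epithelial marker Epcam, at 1.26, 0.870, 2.48 and 1.48 TPM in replicates 1 to 4, missed the rule in replicate 2 alone. The rest of the epithelial list was near 0, with Krt18 at 4 fragments, Cdh1 at 1 and Krt8 at none. Klrd1, a marker of natural killer cells, reached 1 TPM in replicate 1 alone, and the others of that list, Ncr1 and Klrb1c, had no fragment. Libraries 1 and 2 stood apart from 3 and 4 in sex-linked RNA, with Xist at 186, 161, 0.687 and 0.721 TPM and Ddx3y at 0.442, 0.446, 88.6 and 83.2 TPM in replicates 1 to 4. The pattern is that of female cells in the first pair and male cells in the second, so the libraries came from more than 1 animal, against the single donor identifier. Members are given library by library where their level allows.

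Of the 34 members, 17 were detected, 15 reached 10 TPM in every library and 6 reached 100 TPM. Among the 21764 protein-coding genes listed, the shares were 44.8%, 33.9% and 8.72%, beside 44.1% and 17.6% of members at the 2 higher levels. No fragment was found for 4 members, and for 36.8% of protein-coding genes. The median over all 34 members was 1.496 TPM, beside 0.275 TPM over all protein-coding genes. Over detected genes alone it was 49.2 TPM for members and 31.2 TPM for protein-coding genes.

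**Figure D1:**
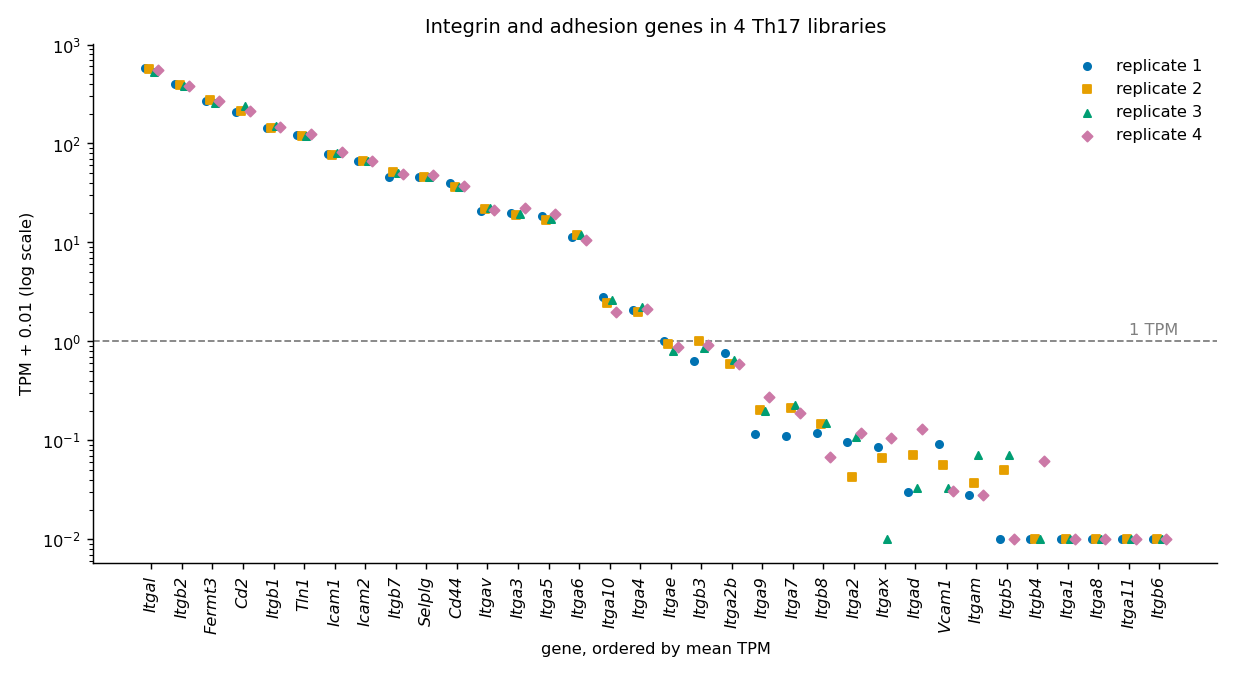
TPM of the 34 genes in each of the 4 libraries, with 0.01 added so that values of 0 can be drawn on the log axis. Points are single libraries, genes are ordered by mean TPM, and the dashed line marks 1 TPM. The order runs from Itgal at 560.2 TPM to 4 genes with no fragment, with a step between Itga6 at 11.4 and Itga10 at 2.47 TPM.

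For the genes of Itgb1, Itgb7 and Itga4, which carry the contrast between abundant beta subunits and a scarce shared alpha partner, the 250 bases before the transcription start are shown, 5′ to 3′ on the gene's strand, from RefSeq on GRCm38.p6 (the assembly named mm10). Capitals mark CG dinucleotides, the sites of DNA methylation. The windows lie at chr8:128685404-128685653 (plus strand) for Itgb1, chr15:102231936-102232185 (minus strand) for Itgb7 and chr2:79255176-79255425 (plus strand) for Itga4.
Itgb1: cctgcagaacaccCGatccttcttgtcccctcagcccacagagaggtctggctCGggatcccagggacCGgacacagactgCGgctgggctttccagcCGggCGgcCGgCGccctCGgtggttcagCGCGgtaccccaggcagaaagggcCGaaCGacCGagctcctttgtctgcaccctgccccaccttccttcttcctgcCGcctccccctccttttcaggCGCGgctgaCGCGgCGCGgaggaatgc
Itgb7: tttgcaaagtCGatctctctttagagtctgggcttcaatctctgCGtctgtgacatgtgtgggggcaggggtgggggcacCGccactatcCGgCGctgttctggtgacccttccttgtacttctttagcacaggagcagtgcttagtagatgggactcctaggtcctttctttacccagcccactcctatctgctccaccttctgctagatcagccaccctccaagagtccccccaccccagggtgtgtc
Itga4: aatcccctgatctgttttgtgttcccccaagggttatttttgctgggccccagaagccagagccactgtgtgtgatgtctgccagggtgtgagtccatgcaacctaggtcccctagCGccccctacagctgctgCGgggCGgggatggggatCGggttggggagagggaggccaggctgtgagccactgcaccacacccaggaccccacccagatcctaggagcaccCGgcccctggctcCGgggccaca
The Itgb1 stretch holds 21 CG sites, the Itgb7 stretch 5 and the Itga4 stretch 6. In windows of 300 bases that also take in the first 50 after the start, Itgb1 had 27 sites, the most of any member window, while Itgb7 had 5 and Itga4 had 10. RefSeq windows were at hand for 22 members (24 windows), among them 11 detected and 11 undetected genes. The median was 11.5 CG sites in the detected genes, 12 in the undetected genes and 7 over all 32851 windows, with ranges of 3 to 27 sites in the detected and 3 to 23 in the undetected genes. The 2 ranges overlap, and no test was made.

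Among the 5 leukocyte alpha subunits, 1 was detected. Itgal (ENSMUSG00000030830.18, chromosome 7, 127296260 to 127335138 in mm10, plus strand) encodes the alpha chain of LFA-1. It was at 584.8, 570.3, 531.2 and 554.5 TPM in replicates 1 to 4, a mean of 560.2 ± 22.95 (SD, n = 4). It was the most abundant member in every library and stood above 97.7% of detected genes. Replicate 3 was lowest and replicate 1 highest, 1.10-fold apart.

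The genes for the alpha chains of myeloid integrins lie on the same strand of chromosome 7, Itgam 727.5 kb beyond Itgal, Itgax 11.1 kb beyond Itgam and Itgad 3.72 kb beyond Itgax. Itgam (128062640 to 128118491) had 6 fragments over the 4 libraries, Itgax (128129547 to 128150657) had 11 and Itgad (128154376 to 128223816) had 10. Their means of 0.0314, 0.0572 and 0.0564 TPM were under their floors of 0.0815, 0.0852 and 0.0908 TPM, the level of 3 fragments in replicate 2, which had the fewest. Exons of a predicted gene, Gm49368, cover 68.7% of the Itgam exon bases on the same strand, so fragments there could be left unassigned. Gm49368 itself had no fragment, which does not show that none were lost, since a shared fragment could go to neither gene. The Itgam mean and floor use all its exon bases, so both could be too low. Of the 6 myeloid markers, which include Itgam, Lyz2 and Fcgr1 were at 0 and the summed level lay between 0.0371 and 0.159 TPM. Floors of this kind cover counting error only.

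Itgae, whose product pairs with Itgb7 and holds T cells at epithelium through E-cadherin, was at 1.00, 0.923, 0.790 and 0.860 TPM. It lay just outside the detection rule, and replicate 1 alone reached 1 TPM. In bulk RNA, fewer cells with a transcript and less of it per cell cannot be told apart.

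Of the 2 alpha subunits that bind Vcam1, Itga4 was detected and Itga9 was at 0.188 ± 0.0633 TPM. Itga4 (ENSMUSG00000027009.18, chromosome 2, 79255426 to 79333123, plus strand) was at 2.06, 1.97, 2.23 and 2.14 TPM in replicates 1 to 4, a mean of 2.10 ± 0.109 (SD, n = 4). Its 4 values spanned 1.13-fold, rested on 1142 fragments and stood above 5.76% of detected genes. By mean TPM on summed exons it was the lowest detected member, but its range overlapped that of Itga10, which was lower in replicate 4. On the longest coding transcript the order turned, with Itga4 at 2.17 and Itga10 at 1.83 TPM.

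Alpha subunits that read the RGD tripeptide of fibronectin and vitronectin included Itgav and Itga5, both detected. Itgav (chromosome 2, 83724397 to 83806916, plus strand) was at 20.7, 21.8, 22.5 and 21.04 TPM in replicates 1 to 4. Itga5, the fibronectin receptor chain, was at 18.6, 16.8, 17.3 and 19.2 TPM. Their libraries differed by at most 1.14-fold. Itga2b, the platelet chain, was at 0.642 ± 0.0832 TPM, while the platelet markers Pf4, Ppbp, Gp9 and Gp1bb were all at 0. For Itga8, whose floor is 0.0556 TPM, no fragment was counted.

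Of the 3 laminin-binding alpha subunits, Itga3 and Itga6 were detected. Itga3 was at 19.8, 19.1, 19.6 and 22.5 TPM, with replicate 4 above the other libraries. Itga6 was at 11.4, 11.9, 11.8 and 10.7 TPM, with replicate 4 the lowest. With the longest coding transcript as the length in place of all exons together, Itga6 was at 17.3 TPM, 1.51 times its main value and close to Itga3 at 17.1 TPM. Itga7, a muscle chain, was at 0.176 ± 0.0512 TPM.

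Collagen-binding alpha subunits were low. Itga10, known from cartilage, was detected at 2.83, 2.45, 2.61 and 1.98 TPM. Its coefficient of variation (SD over mean) of 14.7% was the highest among detected members, against 9.16% from counting alone. Exons of the predicted gene Gm42957, which had 11 fragments in all, cover 33.5% of the Itga10 exon bases on the same strand, so fragments there could be left unassigned. Itga2 had 14 fragments, a mean of 0.0816 TPM under its floor of 0.0971. Itga1, a chain of tissue-resident T cells, and Itga11 had no fragment, with floors of 0.0684 and 0.0798 TPM.

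Of the 8 beta subunits, 3 were detected. Itgb2 (ENSMUSG00000000290.13, chromosome 10, 77530252 to 77565708, plus strand), the shared chain of the leukocyte integrins, was at 397, 394, 382 and 381 TPM in replicates 1 to 4 (388 ± 8.25, SD, n = 4). Itgb1 (ENSMUSG00000025809.15, chromosome 8, 128685654 to 128733200, plus strand), the partner of most matrix receptors, was at 143, 143, 149 and 147 TPM (146 ± 3.04). Itgb7 (ENSMUSG00000001281.9, chromosome 15, 102215995 to 102231935, minus strand), the chain of the gut-homing receptor, was at 46.3, 51.4, 49.8 and 49.5 TPM (49.2 ± 2.14). The ranges of the 3 genes did not overlap, and within each gene the libraries differed by at most 1.11-fold. Itgb2 held 66.5% ± 0.940 of the beta subunit TPM, Itgb1 24.9% ± 0.706 and Itgb7 8.43% ± 0.371. Itgb3, the platelet and osteoclast chain, was at 0.623, 0.994, 0.841 and 0.916 TPM, under 1 in every library. Itgb8 was at 0.110 ± 0.0378 TPM, Itgb5 had 3 fragments, Itgb4 had 4, all in replicate 4, and Itgb6 had none.

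Of 24 known alpha-beta pairs, 8 had both partners detected, 10 only the beta subunit, 5 only the alpha subunit and 1 neither. The 8 were Itgal with Itgb2, Itga4 with Itgb7, and Itgb1 with Itga3, Itga4, Itga5, Itga6, Itga10 and Itgav. At 10 TPM in place of 1, Itga4 and Itga10 dropped out and 5 pairs were left. RNA of both partners does not show that a pair was on the cell surface.

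**Figure D2:**
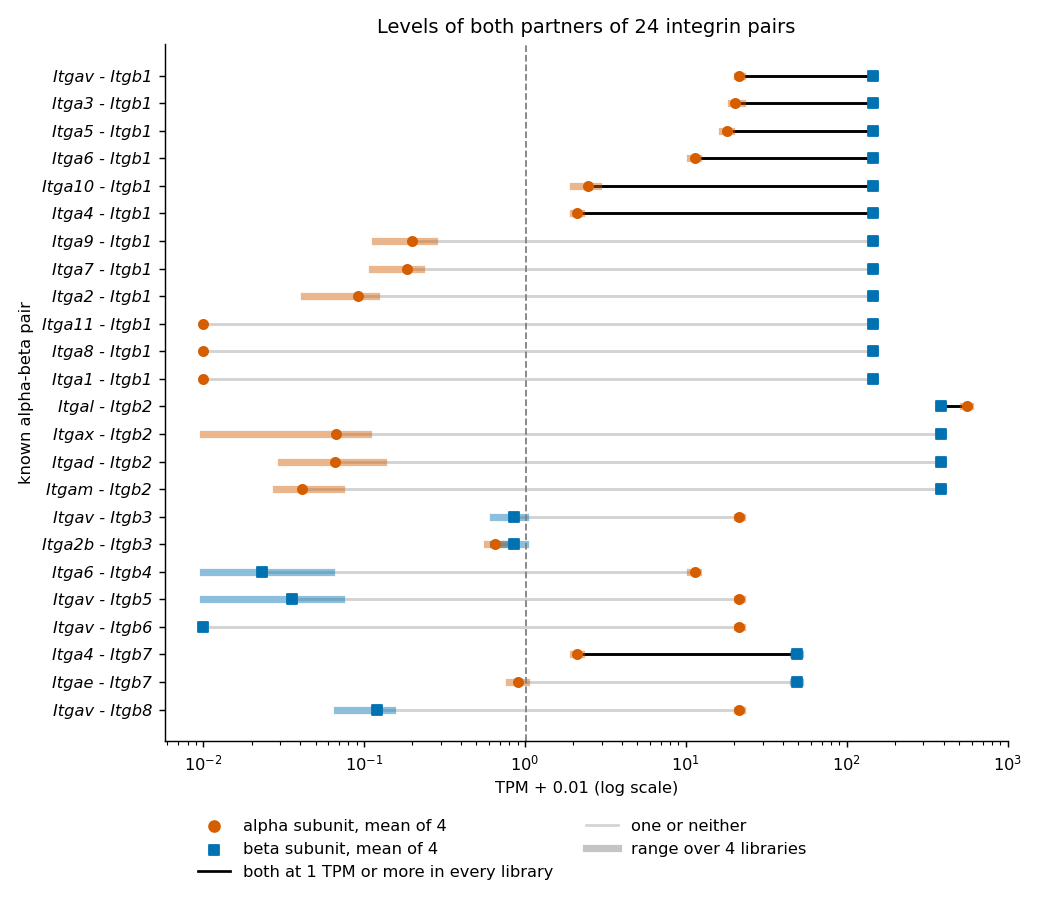
Mean TPM (plus 0.01, log axis) of the alpha subunit (circles) and beta subunit (squares) of 24 known pairs, with thick bars for the range over 4 libraries and a dashed line at 1 TPM. Black lines join the 8 pairs with both partners detected. Itgal is the 1 alpha subunit of these that lies to the right of its beta partner, while Itga4 lies far to the left of both Itgb1 and Itgb7.

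Only for Itgal and Itgb2 was the alpha subunit the higher partner among these 8 pairs. The log2 ratio of Itgal to Itgb2 was 0.56, 0.53, 0.48 and 0.54 in replicates 1 to 4, so Itgal was 1.44-fold higher and higher in 4 of 4 libraries. Itgav was 6.77-fold, Itga3 7.21-fold, Itga5 8.11-fold and Itga6 12.7-fold below Itgb1, and Itga10 and Itga4 were 59.5-fold and 69.4-fold below it. Over the 4 libraries the SD of these 6 log2 ratios lay between 0.04 for Itgav and 0.24 for Itga10. The Itga6 fold was the most dependent on gene length, with a log2 ratio of -3.67 on summed exons and -2.70 on the longest coding transcript. For Itga4 against Itgb7, the log2 ratio was -4.49, -4.70, -4.48 and -4.53, a level 23.5-fold below the beta chain. On the longest coding transcript the mean log2 ratio of Itga4 was -4.07 to Itgb7 and -5.70 to Itgb1, against -4.55 and -6.12 on summed exons. In every library each of the 8 ratios had the sign of its mean. The exact permutation test by sign flips, two-sided, gave p = 0.125 for each pair and the same value after adjustment by Benjamini-Hochberg for 8 pairs. With 4 libraries p cannot be lower, so no pair could pass 0.05.

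Taking partners together, the 12 alpha subunits known to join Itgb1 summed to 76.1 ± 1.54 TPM, which is 52.3% ± 0.814 of the Itgb1 level. The alpha partners of Itgb7 summed to 2.99 ± 0.0696 TPM, 6.09% ± 0.401 of the Itgb7 level. The alpha partners of Itgb2 came to 144% ± 3.53 of the Itgb2 level, nearly all of it Itgal. Itgal alone made up 87.8% ± 0.563 of the TPM of the 18 alpha subunits. Itga4 counts in both the Itgb1 and the Itgb7 sum. On the longest coding transcript the alpha partners came to 67.3% of Itgb1, 8.10% of Itgb7 and 177% of Itgb2.

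Itgav had Itgb1 as its sole detected beta partner. Itgb3, with which Itgav forms the vitronectin receptor, lay 25.9-fold below Itgav, and Itgb5, Itgb6 and Itgb8 were lower still. Itgb8 matters in T cells because its pair with Itgav releases active TGF-beta. Itga6 likewise had Itgb1 but not Itgb4, its epithelial partner.

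Both integrin activators on the list were abundant. Fermt3, the kindlin of blood cells (ENSMUSG00000024965.8, chromosome 19, 6998958 to 7019469, minus strand), was at 268, 272, 256 and 267 TPM in replicates 1 to 4. Tln1, the talin that first engages the beta tail (ENSMUSG00000028465.16, chromosome 4, 43531519 to 43562691, minus strand), was at 122, 119, 120 and 124 TPM. The libraries lay close together for each gene, with coefficients of variation of 2.69% and 1.97%, and the ranges of the genes were apart. Their paralogues, chosen for mention after their values were seen, were near 0, with Tln2 at 0.0610 ± 0.0232 TPM, Fermt2 at 1 fragment and Fermt1 at none.

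Ligands for LFA-1 were themselves present. Icam1 (chromosome 9, 21015985 to 21028817, plus strand), which antigen-presenting cells and activated T cells carry, was at 79.2, 75.6, 80.9 and 82.5 TPM, and Icam2 at 66.1, 66.4, 66.7 and 66.7 TPM. Icam1 was the higher gene in each library. The spread of Icam2, 0.462% of its mean, was under the 2.89% that counting alone gives for a typical library. Vcam1, the endothelial ligand of Itga4 pairs, had 15 fragments in all, a mean of 0.0432 TPM under its floor of 0.0461.

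The 3 other receptors were all detected. Cd2 (ENSMUSG00000027863.8, chromosome 3, 101275899 to 101287939, minus strand), which binds Cd48 on neighbouring cells, was at 206, 213, 241 and 214 TPM (218 ± 15.3), with replicate 3 above the other libraries. Selplg, the P-selectin ligand PSGL-1, was at 45.4, 45.4, 46.1 and 48.4 TPM. Cd44, the hyaluronan receptor of activated and memory T cells, was at 39.6, 36.7, 36.1 and 37.1 TPM. Selplg depends on the length used, with 77.0 TPM on the longest coding transcript against 46.3 on summed exons. Splice forms of Cd44 are not resolved by counts per gene.

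Going down the order of the 17 detected members by TPM on summed exons, 12 of the 16 steps lay between genes whose ranges over the 4 libraries did not overlap. The 4 steps with overlap were Itgb7 and Selplg, Itgav and Itga3, Itga3 and Itga5, and Itga10 and Itga4. Overlap of ranges leaves out that both genes were measured in the same library. Within every library, on summed exons, Itgb7 was above Selplg and Itga3 above Itga5. The other steps turned in replicate 4, where Itga3 was above Itgav and Itga4 above Itga10. No test of these steps was made. Among members with fragments below Itgae in that order, 1 step, from Itga2b to Itga9, lay between ranges that did not overlap. Ranges over libraries do not cover the choice of gene length. On the longest coding transcript Cd2, at 238 TPM, was above Fermt3 at 192 TPM. Selplg, at 77.0 TPM, was above Icam2 at 71.3 and Itgb7 at 36.3 TPM. Itga6, at 17.3 TPM, was above Itga3 at 17.1 and Itga5 at 13.1 TPM.

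Variation between replicates was tested next. In an edgeR quasi-likelihood fit of all genes with an intercept only, which asks which genes vary between libraries more than genes of like abundance, 36 of 11847 genes passed an adjusted p of 0.05 (0.304%), and 674 had an unadjusted p under 0.05 (5.69%). Of the 34 members, 20 had enough fragments to be tested, 0 passed and 1 (Cd2) had an unadjusted p under 0.05. For Cd2 the edgeR quasi-likelihood p was 0.00355 and the Benjamini-Hochberg adjusted p was 0.366. With DESeq2 size factors in the same fit, 0 members passed, with a lowest adjusted p of 0.338 by edgeR. The median ratio of residual to expected spread was 0.963 over the 20 members and 0.804 over all tested genes, so the members are not shown to vary less than other genes.

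**Figure D3:**
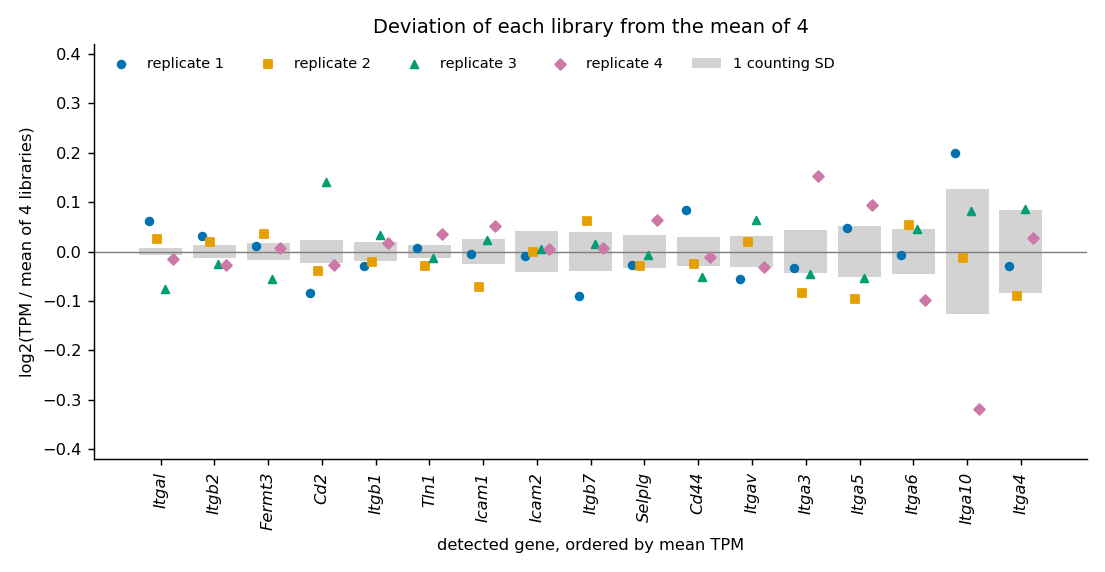
Difference of each library from the mean of the 4 libraries on the log2 scale for the 17 detected genes, ordered by mean TPM. Grey bars span 1 standard deviation of counting error each way, and points are single libraries. Cd2 is high in replicate 3 (241 TPM against a mean of 218), and Itga10 is low in replicate 4 (1.98 against a mean of 2.47).

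The coefficient of variation ranged from 0.462% for Icam2 to 14.7% for Itga10, with a median of 4.10% over detected members and 4.81% over all 11170 detected genes. Itgal had a coefficient of variation of 4.10% where counting alone gives 0.536%. Against genes of like abundance its spread did not pass the test, with a Benjamini-Hochberg adjusted p of 0.957 in the edgeR quasi-likelihood fit. For Itga4 the values were 5.204% and 6.03%, so its spread was within counting error. Replicate 1 was the highest library for 4 detected members and the lowest for 5, replicate 2 for 3 and 6, replicate 3 for 5 and 3, and replicate 4 for 5 and 3.

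Replicates 1 and 2, set apart from 3 and 4 by sex-linked RNA, did not overlap them for 9 of the 17 detected members, a count made after the values were seen. Over all 11170 detected genes the share was 35.3%. Itgal, Itgb2 and Fermt3 were higher in replicates 1 and 2, and Itgb1, Itga4, Icam1, Icam2, Selplg and Cd2 were lower. No test of this split was made, and none of the 9 passed the test of variation between replicates.

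**Figure D4:**
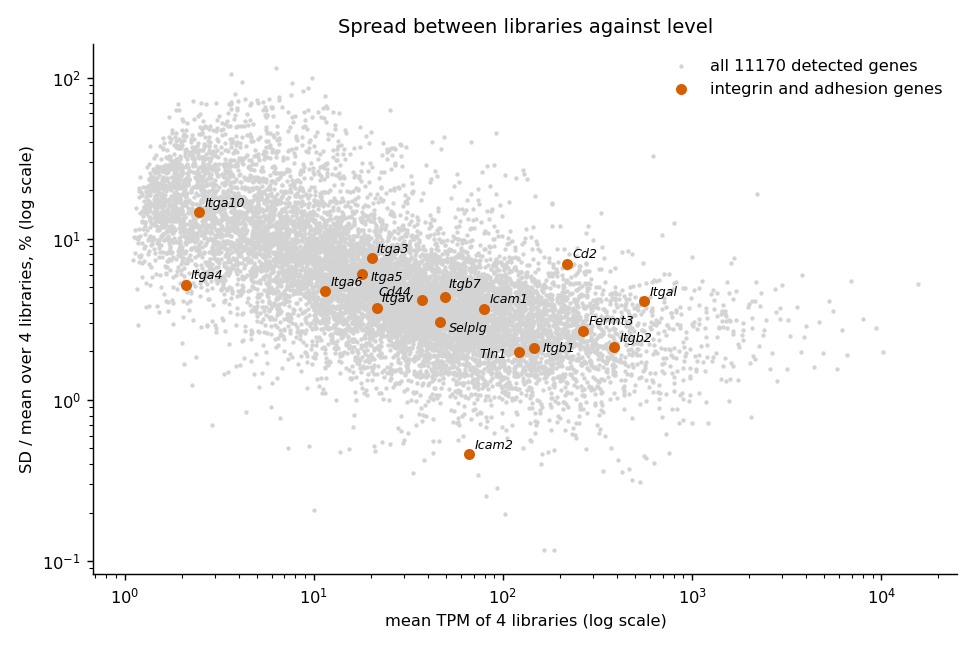
Standard deviation over mean of 4 libraries, in percent, against mean TPM for all 11170 detected genes (grey) and the 17 detected integrin and adhesion genes (labelled), both axes logarithmic. The labelled genes lie within the cloud of all genes, from Icam2 at 0.462% to Itga10 at 14.7%.

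Beyond the members, 90 further adhesion genes in 5 groups were listed, of which 56 were detected, 42 reached 10 TPM in every library and 9 had no fragment. Among all protein-coding genes these shares were 44.8%, 33.9% and 36.8%. Of the 63 with enough fragments to be tested for variation between replicates, 0 passed with edgeR or with DESeq2 size factors in the same fit, and 9 had an unadjusted p under 0.05 by edgeR. Those 9 were Cyth1, the tetraspanins Cd53 and Cd82, Thy1, B4galt1, Chst2, Cd96, Alcam and Slamf6. Over all 11847 genes tested by edgeR, 0.304% passed and 5.69% had an unadjusted p under 0.05.

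Of 34 genes of integrin activation and linkage to actin, 26 were detected. Rap1b and Rap1a, the small GTPases that bring talin to the membrane, were at 1067 ± 29.4 and 232 ± 4.98 TPM. The actin cross-linkers Actn4 and Flna were at 259 ± 6.05 and 183 ± 9.93 TPM. Fermt1, with a floor of 0.0718 TPM, and Parva had no fragment. All 9 membrane partners were detected, with Thy1 at 254 ± 16.2, Slc3a2, which binds beta tails, at 241 ± 5.47, and the tetraspanins Cd53 and Cd82 at 215 ± 14.2 and 132 ± 7.06 TPM. Cd151, the tetraspanin of laminin-binding integrins, was the lowest of them at 7.28 ± 0.838 TPM.

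Of 12 selectins and enzymes that build selectin ligands, 7 were detected. B4galt1 was at 111 ± 6.99, Chst2 at 96.6 ± 5.05, St3gal4 at 57.3 ± 2.19 and the tyrosine sulfotransferase Tpst2 at 48.7 ± 1.83 TPM. Fut7, the fucosyltransferase that makes Selplg bind selectins, was at 4.06 ± 0.579 TPM, a level chosen for mention after it was seen. The endothelial selectin gene Sele had 2 fragments.

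Of 20 other adhesion receptors and ligands, 13 were detected, led by Cd6 at 1342 ± 26.1, Spn at 185 ± 2.50, the Cd2 ligand Cd48 at 130 ± 5.95 and Ly9 at 98.6 ± 4.37 TPM. Cdh1, which encodes the E-cadherin bound by Itgae, was the lowest, at 1 fragment. Of 15 matrix ligand genes, 1 was detected, the laminin chain gene Lamc1 at 7.18 ± 0.231 TPM. Thbs1 was at 0.449 ± 0.0953, Lama5 at 0.144 ± 0.0392 and Spp1 at 0.108 TPM, the last under its floor of 0.248, and Vtn was 1 of 7 with no fragment. The other 14 matrix ligand genes were not detected, in cells where Itgb1 and 6 of its 12 alpha partners were.

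**Figure D5:**
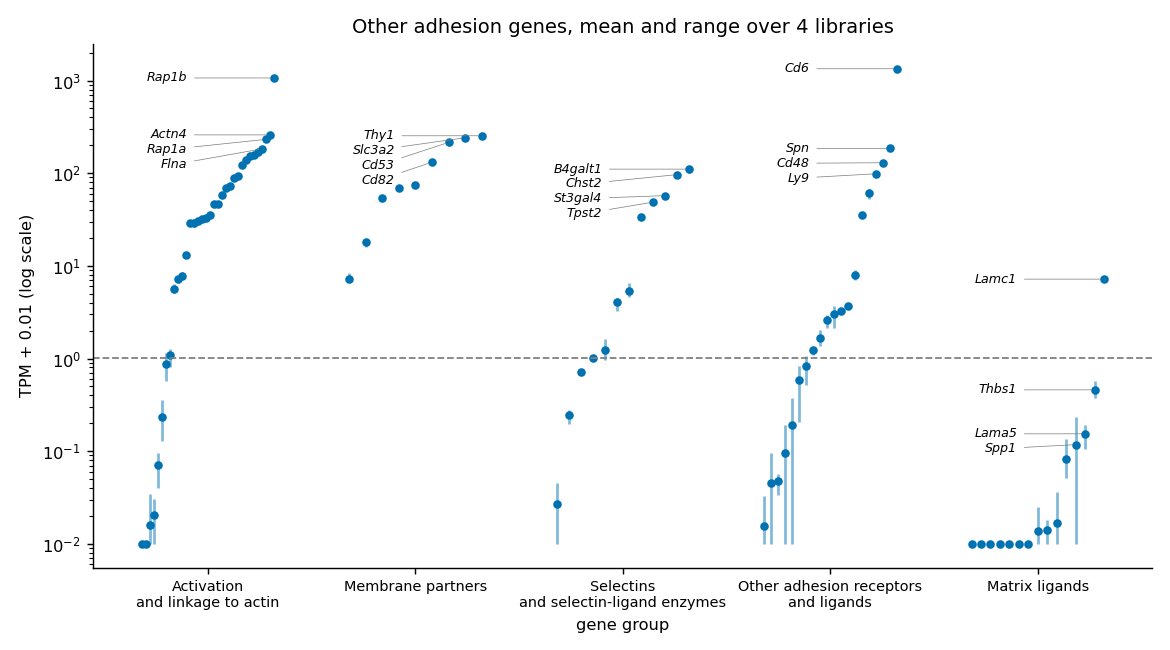
TPM (plus 0.01, log axis) of 90 further adhesion genes in 5 groups, with points for the mean of 4 libraries and bars for their range, and a dashed line at 1 TPM. Names mark the 4 highest genes of each group. Activation genes rise to Rap1b at 1067 TPM, while matrix ligands end at Lamc1 at 7.18 TPM.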

How the data were processed

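RNA was measured in 4 libraries of 1 group. Per the file headers, the authors counted fragments with both ends aligned over the exons of each gene of GENCODE vM13, using featureCounts 1.4.6-p4 with strand option 2, and deposited those raw counts. The build is mm10 per the labels. By label the assay is total RNA-seq, but the name of the linked library protocol is for polyA+ RNA, so which RNA was selected is unsettled. No option to count multiply aligned or ambiguous fragments appears in the headers. Which aligner version was used is not stated in the headers or labels read. A 16 hr tag in the header's alignment names has no counterpart in the labels.

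Symbols came from GENCODE M21 (50376 of 50600 identifiers matched). TPM was fragments over the deposited summed exon length, scaled to 1000000 per library. Coding transcript lengths were taken from GENCODE M21, while the counts and summed exon lengths are those of vM13. A floor of 3 fragments was used for low genes, in the shallowest library. For variation between replicates, edgeR 4.0.16 was run under R 4.3.3 (normalization by TMM, filterByExpr, intercept only, robust prior, older deviance estimate, upper tail of the F distribution, Benjamini-Hochberg over all tested genes), checked on simulated data. Pairs were compared by an exact sign-flip permutation test. Alternatives were other detection thresholds, TPM rescaled without mitochondrial and ribosomal genes, the longest coding transcript length, a pseudocount of 1, DESeq2 1.42.0 size factors, no filter, a prior without robust estimation and each replicate left out. Python 3.11.15 and scipy 1.17.1 did the rest.

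Members, pairs and lists were chosen with earlier results of these data known. All members are named, with values per library from a mean of 10 TPM, or where a partner in a pair reached it and the counts allow. In the other groups the 4 highest and the lowest gene are named.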

Additional observations from a re-analysis of the deposited data

Results flagged for a closer look

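Itgb4, the partner of Itga6 in epithelium, had 4 fragments in replicate 4, or 0.0523 TPM, and none in the other 3 libraries. With 3 libraries at 0, any count in the other library is set apart in this way, so the zeros alone fix it. The value is under the floor of 0.0584 TPM that 3 fragments give in the shallowest library. Of 50 values examined in this way, this was the 1 past the limit. The chance rate of about 1 in 20 is for values without such ties at 0 and does not apply to it.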

How the results depend on the processing

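No paired analysis was possible because there was 1 group of libraries. At 10 TPM in place of 1, pairs with both partners detected fell from 8 to 5, and at 0.5 TPM they were 11, with Itgae, Itgb3 and Itga2b added. Detected members were 15 and 20 at those thresholds and 17 under rescaled TPM, coding transcript length and each replicate left out. All 8 alpha to beta ratios kept their direction under the alternatives run. Over all genes, the number varying between replicates was 94 without a filter on low counts, 17 without the robust prior and 15 to 37 with a replicate left out, lowest without replicate 4. It was 0 among members in each of these fits, where the lowest adjusted p by edgeR lay between 0.24 and 0.936. Rescaling raised the TPM of detected members by a median of 1.20-fold. Coding length multiplied the TPM of all detected genes by a median of 0.845, and it moved Itga6, Selplg and Vcam1 up and Itga2 down by over 1.5 times. For Itga2 the coding length, from GENCODE M21, was 7108 bases, more than the 4214 bases of summed exons from vM13. Its shift therefore comes with a change of annotation release. Coding length also put Itga10 below Itga4, Fermt3 below Cd2, Icam2 and Itgb7 below Selplg, and Itga3 and Itga5 below Itga6. Depth limits the members under 0.1 TPM, which rested on 15 fragments or fewer.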
